A study of Homo sapiens with 6 samples.

Results

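The genes described here encode lysosomal enzymes, lysosomal membrane proteins and subunits of the vacuolar proton pump, the V-ATPase. The list was set by gene symbol. Of 42 listed genes, 41 had a transcript cluster (the probe set that covers 1 transcribed locus on the array) with exactly 1 gene symbol, out of 22465 genes measured in this way, and the cluster with the highest mean over the 6 arrays stood for a gene. The missing member is GLB1, a beta-galactosidase, whose cluster also carries the symbol TMPPE and read 5.76, 5.94 and 6.02 after PM2.5 and 5.70, 5.61 and 6.08 in controls. The cells were AC16, a human line of myocardial origin, and total RNA was put on 6 arrays. A 24 h treatment with 50 µg/mL of PM2.5, the fine fraction of airborne particles, preceded 3 of the samples, and the other 3 are labelled control with no agent or time given. The titles call the samples of a group biological replicates, but no label says that they were separate cultures. The spread behind each p-value is that of a gene over these 6 samples, drawn towards the spread of genes of similar level. It may be partly technical. All values are on the log2 scale of RMA, a method that subtracts background, equalises the distributions of the arrays and combines the probes of a cluster. Levels on single arrays are given in the order of replicates 1, 2 and 3. In bulk RNA, fewer cells of a type and less RNA per cell cannot be told apart.

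Lysosomes are acidic compartments in which cells break down material taken up from outside or delivered by autophagy. The V-ATPase acidifies them: its cytosolic V1 sector splits ATP and turns a rotor, and its membrane V0 sector carries protons across. Soluble hydrolases work at the resulting low pH, and heavily glycosylated membrane proteins line the inside of the membrane. The transcription factor TFEB and its relatives bind a short element in the promoters of many of these genes. Heart muscle depends on the system, as cardiomyopathy in LAMP2 deficiency (Danon disease) and in acid alpha-glucosidase deficiency (Pompe disease) shows.

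The core of that element, TCACGTGA, and the 6 bases CACGTG within it were searched in RefSeq promoters (GRCh38.p14), each running from 250 bases before to 50 bases after the start of a gene. Both motifs read the same on both strands, and each longer match is also a match of the shorter motif. Promoters were matched for 29 of the 41 members. The longer motif was in 6 of the 29 (20.7%), against 68 of the 2881 matched genes with a mean above background (2.36%) and 283 of 27305 promoters in all (1.04%). The shorter motif was in 10 of the 29 (34.5%), against 11.7% and 7.43%. Among the 24 matched members with a mean above background the longer motif was in 5 (20.8%) and the shorter in 9 (37.5%). The element is known from the promoters of many of these genes, so a higher share among the members is no independent result. A match is a description of the letters and not evidence of binding. The longer motif was in the promoters of LAMP1, CTSA, GAA, MCOLN1, ATP6V0D1 and ATP6V1G1, and the shorter alone in those of CD63, CTSD, NEU1 and ATP6V0B. Promoters are shown for the 4 members with the longer motif and the lowest unadjusted p in limma for PM2.5 against control. They belong to a channel, a glycosidase, a protease and a pump subunit and show how close to the gene start the element lies. Capitals mark the motifs, and the strand is plus in all 4. In MCOLN1 (chr19:7522374-7522673) the longer motif begins 42 and 15 bases before the start, in GAA (chr17:80101331-80101630) 77 and 32, in CTSA (chr20:45891085-45891384) 26 and in ATP6V1G1 (chr9:114587519-114587818) 59.
MCOLN1: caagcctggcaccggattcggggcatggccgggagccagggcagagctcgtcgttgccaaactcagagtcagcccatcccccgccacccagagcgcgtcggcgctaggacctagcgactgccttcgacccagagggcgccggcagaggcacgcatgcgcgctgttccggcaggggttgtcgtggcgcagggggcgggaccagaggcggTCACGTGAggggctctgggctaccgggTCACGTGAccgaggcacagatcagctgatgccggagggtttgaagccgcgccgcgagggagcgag
GAA: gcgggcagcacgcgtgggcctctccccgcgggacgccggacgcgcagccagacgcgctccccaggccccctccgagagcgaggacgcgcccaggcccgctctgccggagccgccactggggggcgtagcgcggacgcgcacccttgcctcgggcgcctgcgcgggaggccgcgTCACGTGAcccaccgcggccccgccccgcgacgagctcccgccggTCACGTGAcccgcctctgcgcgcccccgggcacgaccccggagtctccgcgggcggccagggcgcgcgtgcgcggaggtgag
CTSA: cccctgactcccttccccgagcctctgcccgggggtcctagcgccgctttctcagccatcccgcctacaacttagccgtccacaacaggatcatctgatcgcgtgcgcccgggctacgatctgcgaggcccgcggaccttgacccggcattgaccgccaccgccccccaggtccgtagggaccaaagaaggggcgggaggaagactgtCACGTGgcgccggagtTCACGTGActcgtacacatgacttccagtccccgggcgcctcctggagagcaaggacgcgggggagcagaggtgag
ATP6V1G1: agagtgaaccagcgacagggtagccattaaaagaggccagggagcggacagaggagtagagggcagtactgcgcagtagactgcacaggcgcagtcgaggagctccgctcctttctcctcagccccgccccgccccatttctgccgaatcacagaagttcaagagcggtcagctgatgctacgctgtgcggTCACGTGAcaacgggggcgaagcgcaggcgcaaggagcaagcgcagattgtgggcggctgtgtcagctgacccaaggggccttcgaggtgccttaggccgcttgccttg

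Averaged over 8 spike-in control probe sets, the signal was 10.73 to 10.90 on 3 arrays, namely control replicates 1 and 2 with PM2.5 replicate 1 (here the high set), and 10.17 to 10.27 on the other 3, control replicate 3 with PM2.5 replicates 2 and 3 (the low set). Over the 4028 genes with a mean above background, Pearson's r was 0.991 to 0.996 for a PM2.5 and a control array within one set. For 2 arrays of one treatment it was 0.945 to 0.977 when they came from both sets. The labels name no batch for these sets. Background is taken here as 5.66, the highest of 23 background probe sets on any array. By this measure 30 of the 41 members lay above background in their mean, against 17.93% of all genes, and 28 did so on every array. The other 11 were CTSC, CTSK, GAA, ARSA, ARSB, ASAH1, LIPA, ATP6V1A, ATP6V1C1, ATP6V1D and ATP6V1H. The cutoff of 5.66 was set by a single array, control replicate 1. Per array, the same maximum was 5.11, 5.14 and 4.92 after PM2.5, and 4.68 and 4.89 for control replicates 2 and 3. ATP6V1H exceeded these own-array maxima on every array but control replicate 1. ATP6V1A, ASAH1 and LIPA exceeded them on replicates 2 and 3 of each group. ATP6V1C1 and ATP6V1D did so on control replicates 2 and 3 alone, and GAA on control replicate 2 alone. Within background therefore means under 5.66 and does not show that a gene was undetected. Among 15 measured cardiomyocyte markers MYL2 and DES lay above background, and MYH6, MYH7, ACTC1, NKX2-5 and GATA4 did not. The defining markers of the labelled cell type were thus mostly under the cutoff of 5.66. The means of ACTC1, 5.31 after PM2.5 and 5.33 in controls, lay above the own-array maxima of all arrays but control replicate 1. Of 10 fibroblast markers COL1A1, COL1A2, VIM and FN1 lay above it. Of 12 macrophage and leukocyte markers, cells rich in lysosomes, only CD68 lay above background, and it is itself a lysosomal membrane gene. The summed linear signal of that list, as log2, ran from 9.65 to 10.35 after PM2.5 and from 8.97 to 10.54 in controls; its part in the results was not tested.

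After PM2.5 no lysosomal or proton pump gene passed the test. In limma 0 of 41 members had an adjusted p under 0.05 (adjusted p = 1 for each), as did 0% of all 22465 genes, and 0 had an unadjusted p under 0.05, where 0.686% of all genes had one and were higher and 1.42% lower. The mean was higher after PM2.5 for 28 members and lower for 13, where 43.1% of all genes and 54.4% of those with a mean above background were higher. The median log2 change was 0.073 over the members, -0.0099 over all genes and 0.032 over the 3304 protein-coding genes with a mean above background, and the members ran from -0.11 (ATP6V1C1) to 0.61 (PSAP). Groups did not overlap for 1 member, CD63, which was higher, against 1.95% of all genes higher and 3.37% lower. That count was 6 after a further quantile normalization (4.11% of all genes higher) and 4 with protein-coding genes alone (3.39%). For 34 members the 95% interval of the change lay within 1 log2 unit of 0, and for LAMP2, CTSB, CTSL, SMPD1, PSAP, GRN and ATP6V1B2 it reached above 1, and for LAMP2 and CTSL also below -1. The spike-in sets were spread unevenly over the groups in this fit. PM2.5 replicates 2 and 3, but only control replicate 3, had low spike-in signal. Every change without a block, and each count of genes higher or lower in mean, therefore holds part of the difference between the sets. Much of the above changed without control replicate 3, the only control array with low spike-in signal. That fit set controls of high spike-in signal alone against PM2.5 arrays of both kinds, so it mixed treatment with spike-in set still more. In it the members' median was 0.22, 36 were higher, and 17 were higher without overlap, against 9.71% of all genes and 22.5% of those with a mean above background. In that fit 5 members had an unadjusted p under 0.05 (9.1% of all genes) and 0 passed. Without control replicate 2 the median was -0.011. Without PM2.5 replicate 1, the only PM2.5 array with high spike-in signal, it was 0.16.

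With the spike-in set as a block the members' median log2 change was -0.022, 18 were higher and 23 lower (53.2% of all genes and 63.9% of those with a mean above background were lower), and 0 passed in limma (lowest adjusted p = 0.862). Unadjusted p lay under 0.05 for 3 members, all lower, against 3.51% of all genes and 5.81% of those with a mean above background. Within the sets the direction of the median differed, for the members and for genes with a mean above background alike. Among the high-set arrays the median of the members was 0.040. It was 0.016 over genes with a mean above background and 0.034 over the protein-coding ones among them. PM2.5 replicate 1 lay above both high-set controls for 19 of 41 members, against 28.7% of all genes and 32.5% of those with a mean above background. Among the low-set arrays the median of the members was -0.083, against -0.12 and -0.13 over the same 2 lists. Both PM2.5 arrays lay below the single low-set control array for 25 members, against 36.4% of all genes and 61.7% of those with a mean above background. The direction was the same in both sets for 18 members, 6 higher (22.3% of all genes) and 12 lower (25.9%), and opposite for 23 (51.7%). Among genes with a mean above background 15.3% were higher in both sets, 32.7% lower in both and 52% opposite. Within a set 1 array stands against 2, and no error was computed for these differences.

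**Figure D1:**
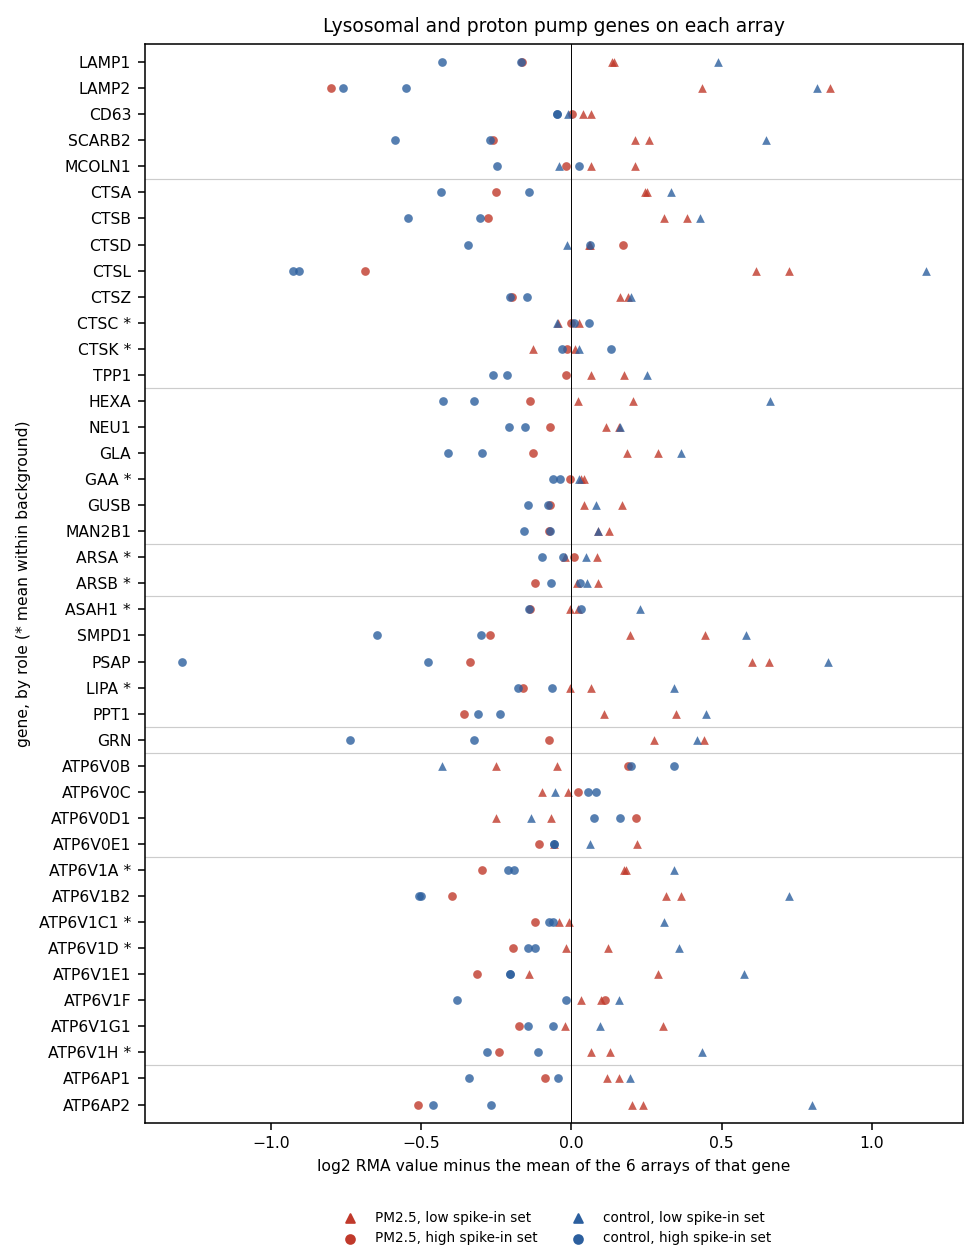
Log2 value of each of the 41 genes on each array, as the difference from the mean of its 6 arrays, with genes grouped by role, colour for the treatment, triangles for the low and circles for the high set, and asterisks for genes whose mean lies within background. For 28 genes all triangles lie right of all circles, and for ATP6V0B, ATP6V0C and ATP6V0D1 they lie left.

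Lysosomal membrane proteins were all somewhat higher in mean after PM2.5, none past the test. Over all genes 43.1% were higher in mean, and 54.4% of those with a mean above background. With the spike-in set as a block LAMP1, LAMP2 and SCARB2 were lower, and the median of the 5 genes was -0.11. CD63, a tetraspanin of late endosomes, lysosomes and exosomes, read 8.58, 8.62 and 8.64 after PM2.5 and 8.53, 8.53 and 8.57 in controls. The groups did not overlap, with a log2 change of 0.071 (SE 0.15, 95% interval -0.29 to 0.43), and the change was 0.051 in the high set and 0.062 in the low set. The SD of CD63 was 0.031 after PM2.5 and 0.022 in controls, below this SE, which also draws on the spread of other genes. When protein-coding genes alone were quantile normalized the sign of the CD63 change turned (log2 change -0.050). Control replicates 1 and 2 held exactly the same CD63 value. Any 2 arrays shared 407 to 647 exactly equal values among all transcript clusters. MCOLN1, the calcium channel TRPML1, had the lowest unadjusted p of all members (unadjusted p = 0.175, adjusted p = 1 in limma). It read 5.96, 6.04 and 6.19 after PM2.5 and 6.001, 5.73 and 5.94 in controls, a log2 change of 0.17 (SE 0.11). Control replicate 1 lay above PM2.5 replicate 1, so the groups overlapped, and the change was 0.093 in the high set and 0.18 in the low set.

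LAMP1 and LAMP2, the major glycoproteins of the lysosomal membrane, differed more between the sets of arrays than between the treatments. LAMP2, which also serves the fusion of autophagosomes with lysosomes, read 6.98, 8.64 and 8.21 after PM2.5 and 7.23, 7.02 and 8.60 in controls (log2 change 0.33, SE 0.58). PM2.5 replicate 1 was the lowest and PM2.5 replicate 2 the highest of all 6 arrays, and with the set as a block the change was -0.16 (SE 0.15). LAMP1 read 7.09, 7.40 and 7.39 after PM2.5 and 7.09, 6.83 and 7.74 in controls, where control replicates held both the lowest and the highest value. SCARB2, the receptor that carries glucocerebrosidase to lysosomes, read 5.97, 6.45 and 6.49 after PM2.5 and 5.96, 5.65 and 6.88 in controls, again with controls at both ends. The change was 0.13 in the high set and -0.35 in the low set for LAMP1, and 0.17 in the high set and -0.41 in the low set for SCARB2.

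Among the 8 proteases 6 were higher in mean after PM2.5 and 2, CTSC and CTSK, lower, and 0 passed. Over all genes 43.1% were higher in mean, and 54.4% of those with a mean above background. With the set as a block 4 proteases were higher and 4 lower. CTSD, the main aspartic protease of lysosomes, read 12.09, 11.98 and 11.98 after PM2.5 and 11.98, 11.58 and 11.91 in controls. Control replicate 2 stood below the rest and control replicate 1 between the PM2.5 arrays, so the groups overlapped at a log2 change of 0.20 (SE 0.17). With the set as a block the log2 change of CTSD was 0.19 (SE 0.14), and it was 0.31 in the high set and 0.075 in the low set. Without the block the log2 change of CTSD was 0.30 after a further quantile normalization. With protein-coding genes alone, quantile normalized, it was -0.0085, and that of CTSA turned from 0.16 to -0.012. CTSL, a cysteine protease, read 7.79, 9.20 and 9.09 after PM2.5 and 7.55, 7.57 and 9.66 in controls, a log2 change of 0.43 (SE 0.69, 95% interval -1.25 to 2.12). Control replicate 3 was the highest of all arrays and the other controls the lowest. Without control replicate 3, the only low-set control, the change in CTSL was 1.13, and with the set as a block it was -0.14 (SE 0.19).

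The cysteine protease CTSB read 8.37, 8.95 and 9.03 after PM2.5 and 8.34, 8.10 and 9.07 in controls. CTSA, a carboxypeptidase that also stabilises beta-galactosidase and the sialidase NEU1, read 10.77, 11.27 and 11.27 after PM2.5 and 10.88, 10.59 and 11.35 in controls. In both, control replicate 3 was the highest array and control replicate 2 the lowest. CTSZ, another carboxypeptidase, read 6.04, 6.41 and 6.43 after PM2.5 and 6.10, 6.04 and 6.44 in controls, where the PM2.5 and control arrays of a set nearly coincided. TPP1, which removes tripeptides and is mutated in a childhood neuronal ceroid lipofuscinosis, read 7.25, 7.33 and 7.44 after PM2.5 and 7.05, 7.01 and 7.52 in controls, with PM2.5 replicate 1 above control replicates 1 and 2 but control replicate 3 above all. CTSC and CTSK, known from immune cells and osteoclasts, lay within background on every array, at 4.07 and 4.13 in their mean over all arrays. CTSK had the lowest p of the proteases (unadjusted p = 0.209, adjusted p = 1 in limma) at a log2 change of -0.085.

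All 6 measured glycosidases were higher in mean after PM2.5, by 0.048 (GAA) to 0.23 (GLA), and 0 passed. Over all genes 43.1% were higher in mean, and 54.4% of those with a mean above background. GLA, the alpha-galactosidase lost in Fabry disease, read 6.56, 6.98 and 6.87 after PM2.5 and 6.39, 6.28 and 7.05 in controls. HEXA, the alpha subunit of beta-hexosaminidase, read 7.04, 7.38 and 7.20 after PM2.5 and 6.85, 6.75 and 7.84 in controls (log2 change 0.06, SE 0.31). HEXA was at -0.15 (SE 0.20) with the set as a block, where the other 5 glycosidases stayed higher. In both genes PM2.5 replicate 1 lay above control replicates 1 and 2, and control replicate 3 lay above PM2.5 replicates 2 and 3. NEU1, which removes sialic acid, read 6.07, 6.25 and 6.30 after PM2.5 and 5.98, 5.93 and 6.30 in controls. It has 8 transcript clusters on chromosome 6 and its alternate haplotypes, 7 of them with the same values. GUSB, the beta-glucuronidase, read 6.03, 6.14 and 6.27 after PM2.5 and 6.03, 5.96 and 6.19 in controls, with a log2 change of 0.092 and one of 0.031 with the set as a block. MAN2B1, an alpha-mannosidase, read 5.75, 5.95 and 5.91 after PM2.5 and 5.75, 5.67 and 5.91 in controls, with a log2 change of 0.092 and one of 0.028 with the block. GAA, the acid alpha-glucosidase, lay within background on every array at 4.79 ± 0.0246 after PM2.5 and 4.74 ± 0.0446 in controls (n = 3 each), and so did the sulfatases ARSA, at 4.28 ± 0.0535 after PM2.5 and 4.23 ± 0.0733 in controls, and ARSB, at 4.51 ± 0.106 after PM2.5 and 4.52 ± 0.0643 in controls.

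Lipid-degrading enzymes gave a mixed picture, with 3 of 5 higher in mean and 0 past the test. Over all genes 43.1% were higher in mean, and 54.4% of those with a mean above background. With the set as a block 1 of the 5 was higher and 4 lower. PSAP, the precursor of the saposins that present lipids to these enzymes, had the largest change of the members, at 10.47, 11.46 and 11.41 after PM2.5 and 10.33, 9.51 and 11.66 in controls (log2 change 0.61, SE 0.59, 95% interval -0.83 to 2.06). Controls held both the highest and the 2 lowest values, and the change was 0.55 in the high set and -0.23 in the low set. SMPD1, the acid sphingomyelinase, read 6.46, 6.93 and 7.17 after PM2.5 and 6.43, 6.09 and 7.31 in controls, also with control replicate 3 highest and the other controls lowest. PPT1, which removes palmitate from proteins, exceeded background on 3 arrays and read 5.38, 6.09 and 5.85 after PM2.5 and 5.50, 5.43 and 6.18 in controls. The acid ceramidase ASAH1 (5.14 ± 0.0861 after PM2.5 and 5.22 ± 0.184 in controls, n = 3 each) and the acid lipase LIPA (5.09 ± 0.116 after PM2.5 and 5.16 ± 0.273 in controls) lay within background on every array. With the set as a block PPT1, ASAH1 and LIPA were at -0.15, -0.15 and -0.18, each lower in both sets. GRN, progranulin, a glycoprotein that lysosomes cut into granulins, read 9.71, 10.06 and 10.23 after PM2.5 and 9.46, 9.05 and 10.20 in controls (log2 change 0.43, SE 0.34). Its change was 0.46 in the high set and -0.059 in the low set, with control replicate 2 the lowest array.

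The V-ATPase genes had a median log2 change of -0.038 over 14 members, 6 higher and 8 lower in mean, and the 27 other members one of 0.10, 22 higher and 5 lower. Over all genes 43.1% were higher in mean, and 54.4% of those with a mean above background. With the set as a block the median of the 14 was -0.077, with 4 higher and 10 lower. That of the 27 was 0.0029, with 14 higher and 13 lower. Over all genes the median with the block was -0.0049, with 53.2% lower, and over those with a mean above background -0.048, with 63.9% lower. In the V0 sector ATP6V0B and ATP6V0C encode the proteolipids that form the proton-carrying ring, ATP6V0D1 a stalk subunit and ATP6V0E1 a small membrane subunit. ATP6V0B read 8.12, 7.69 and 7.89 after PM2.5 and 8.28, 8.13 and 7.51 in controls. ATP6V0C read 7.08, 6.96 and 7.05 after PM2.5 and 7.14, 7.12 and 7.01 in controls. ATP6V0D1 read 10.60, 10.13 and 10.31 after PM2.5 and 10.55, 10.46 and 10.25 in controls. In these 3 genes the low-set arrays of both groups stood below the high-set arrays, opposite to most members. ATP6V0E1 read 13.36, 13.40 and 13.68 after PM2.5 and 13.40, 13.40 and 13.52 in controls. PM2.5 replicate 2 and control replicates 1 and 2 held exactly the same ATP6V0E1 value. The log2 change of ATP6V0E1 was 0.036 as first analysed and 0.32 after a further quantile normalization. It was -0.0080 with protein-coding genes alone, quantile normalized. In that last fit ATP6V0B, ATP6V0C and ATP6V0D1 were at -0.19, -0.11 and -0.21, against -0.073, -0.055 and -0.069 as first analysed.

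Of the 8 V1 subunits 4 were higher and 4 lower in mean. With the set as a block 7 were lower, against 53.2% of all genes and 63.9% of those with a mean above background. ATP6V1A, the catalytic subunit, read 4.87, 5.35 and 5.35 after PM2.5 and 4.98, 4.96 and 5.51 in controls. It stayed under the cutoff of 5.66 on every array, but exceeded the own-array background maximum on replicates 2 and 3 of each group. Within each set PM2.5 lay below control, and with the set as a block the log2 change was -0.13 (SE 0.046, unadjusted p = 0.0334, adjusted p = 0.862 in limma). ATP6V1B2, its non-catalytic partner in the head, read 6.28, 7.04 and 6.99 after PM2.5 and 6.17, 6.17 and 7.40 in controls, with control replicate 3 highest. ATP6V1C1, ATP6V1D and ATP6V1E1 are parts of the stalks and the rotor. ATP6V1C1 read 4.75, 4.83 and 4.87 after PM2.5 and 4.80, 4.81 and 5.18 in controls. ATP6V1D read 4.73, 5.04 and 4.90 after PM2.5 and 4.78, 4.80 and 5.28 in controls. ATP6V1E1 read 5.70, 6.30 and 5.87 after PM2.5 and 5.81, 5.81 and 6.59 in controls. In all 3 control replicate 3 was the highest array, and PM2.5 replicate 1 the lowest. With the set as a block their changes were -0.19, -0.18 and -0.31, and ATP6V1C1 had an unadjusted p of 0.0418 (adjusted p = 0.862 in limma). A further cluster of ATP6V1D read lower on every array and was not used. It stood at 4.16, 3.87 and 3.48 after PM2.5 and 3.56, 4.02 and 3.79 in controls. There PM2.5 replicate 1 was the highest array, unlike in the cluster used.

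ATP6V1H, a regulatory subunit, exceeded background on 2 arrays and read 5.34, 5.71 and 5.65 after PM2.5 and 5.47, 5.30 and 6.02 in controls. ATP6V1F, a rotor subunit, read 8.60, 8.52 and 8.59 after PM2.5 and 8.47, 8.11 and 8.65 in controls. ATP6V1G1, a stalk subunit, read 6.27, 6.75 and 6.43 after PM2.5 and 6.30, 6.39 and 6.54 in controls. ATP6V1F on control replicate 2 stood apart below the others, and the arrays of the groups overlapped in all 3 genes. The accessory proteins ATP6AP1 and ATP6AP2 help to assemble the pump, and the second is also known as the prorenin receptor. ATP6AP1 read 7.09, 7.33 and 7.30 after PM2.5 and 7.13, 6.84 and 7.37 in controls, with control replicate 2 lowest. ATP6AP2 read 6.24, 6.95 and 6.99 after PM2.5 and 6.48, 6.29 and 7.55 in controls. Its change was -0.15 in the high set and -0.58 in the low set, and with the set as a block the log2 change of ATP6AP2 was -0.36 (SE 0.13, unadjusted p = 0.0360, adjusted p = 0.862 in limma). Without the block it was -0.046 (SE 0.39).

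**Figure D2:**
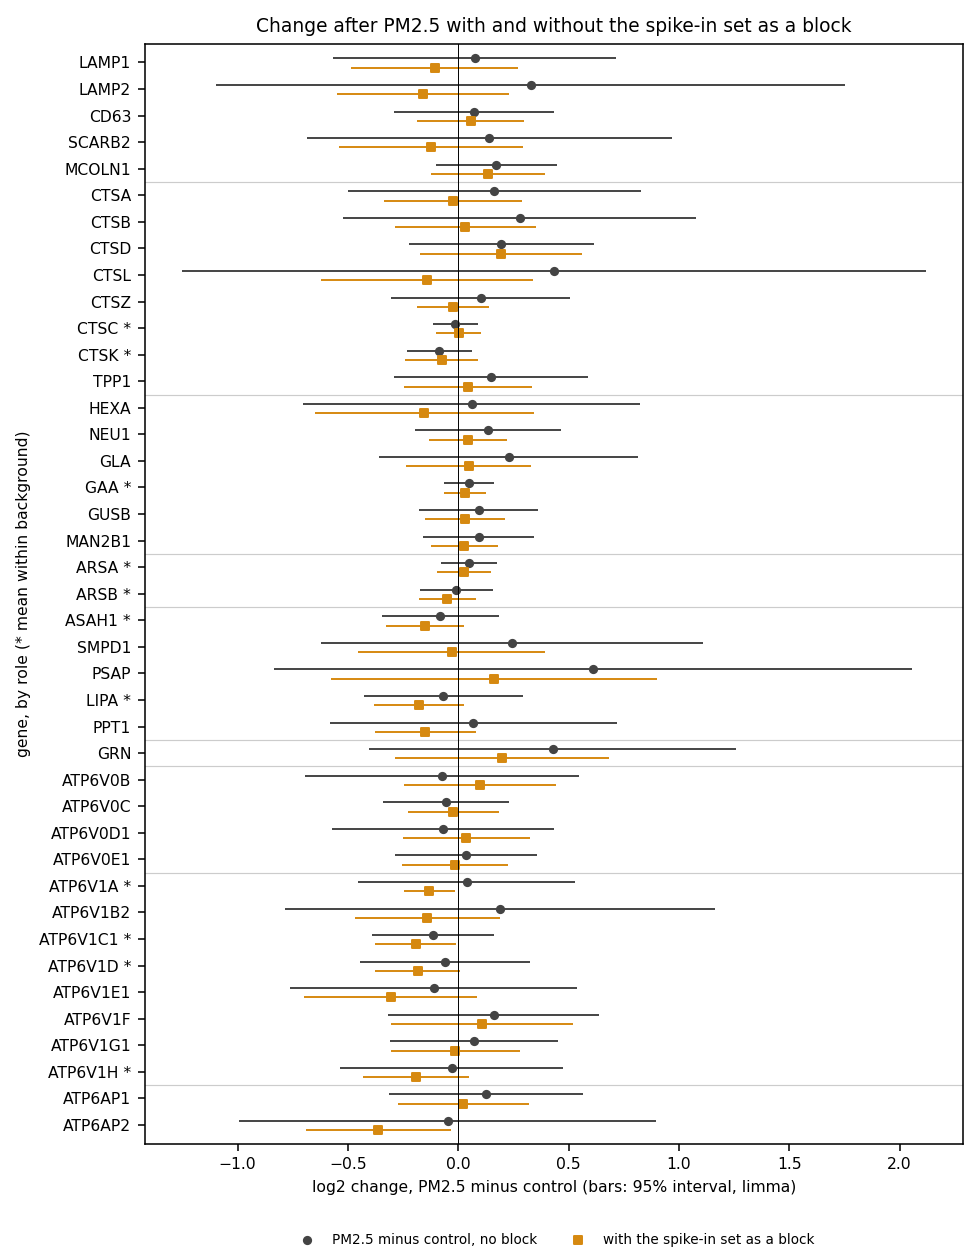
Log2 change, PM2.5 minus control, of the 41 genes with its 95% interval in limma, without a block (grey circles) and with the spike-in set as a block (orange squares); asterisks mark genes whose mean lies within background. The intervals without a block all span 0, and with the block those of ATP6V1A, ATP6V1C1 and ATP6AP2 lie just below 0, none past the adjusted test.

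**Figure D3:**
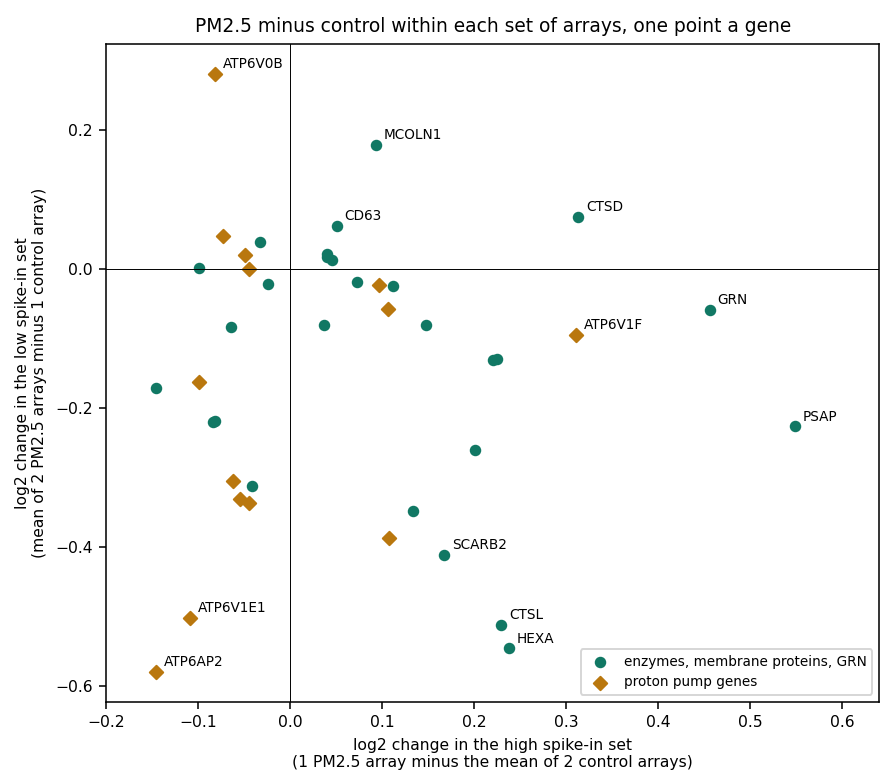
Change of each gene among the high-set arrays (horizontal, 1 PM2.5 array minus the mean of 2 control arrays) against that among the low-set arrays (vertical, mean of 2 PM2.5 arrays minus 1 control array), in log2 units without error, with proton pump genes as diamonds. In the lower right lie genes such as PSAP, GRN, CTSL and HEXA, higher in one set and lower in the other, and 6 proton pump genes lie in the lower left.

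Most members differed more between the sets of arrays than between the treatments, as did most genes on the array. The difference, low set minus high set, was taken from a model with both terms. In size it exceeded the PM2.5 change of the fit without the set for 36 of 41 members. That held for 75.2% of all genes and 84.6% of those with a mean above background. The median of the difference was 0.31 over the members, against 0.17 over all genes with a mean above background and 0.26 over the protein-coding ones among them. All 3 low-set arrays lay above all 3 high ones for 28 members, against 16.3% of all genes and 44.6% of genes with a mean above background, and below them for 3, against 24.1% and 18.8%. In limma 10 members passed at an adjusted p under 0.05, all higher in the low set, where 5.4% of all genes and 19.8% of those with a mean above background did. They were LAMP2, CTSB, CTSL, CTSZ, SMPD1, PPT1, ATP6V1A, ATP6V1B2, ATP6V1H and ATP6AP2. CTSL had the largest difference of the members, at 9.31 ± 0.300 in the low and 7.64 ± 0.133 in the high set (n = 3 each, log2 difference 1.72, SE 0.19, adjusted p = 0.0226 in limma). LAMP2 was next, at 8.48 ± 0.234 and 7.07 ± 0.135 (log2 difference 1.46, SE 0.15, adjusted p = 0.0224 in limma). ATP6V0B stood at the other end (-0.52, SE 0.14, adjusted p = 0.0794 in limma), with ATP6V0D1 (-0.31, SE 0.11). CTSD and CD63 hardly differed between the sets, with a log2 difference of 0.0065, SE 0.14, for CTSD and of 0.043, SE 0.096, for CD63. The sets were defined from the spike-in signal alone and what makes them differ was not tested.

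**Figure D4:**
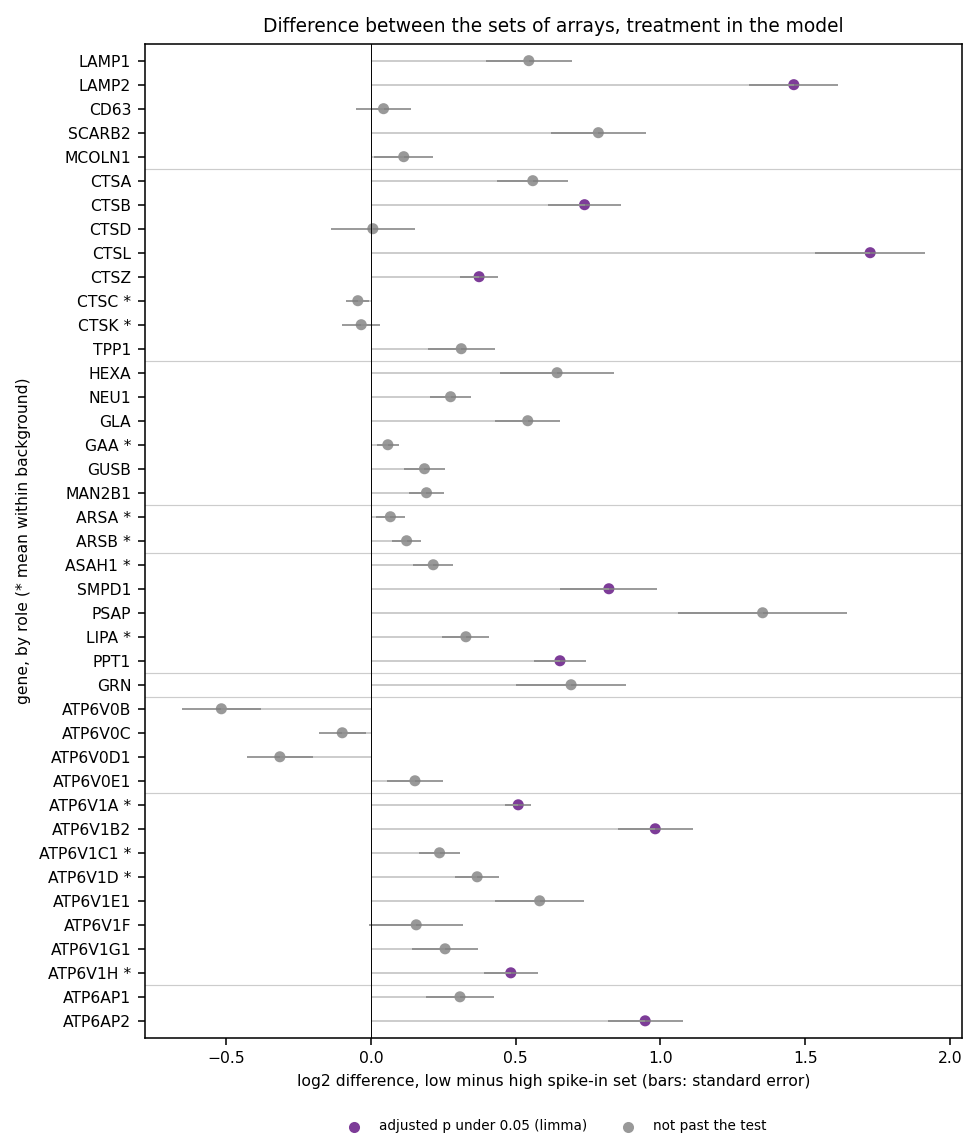
Log2 difference between the low and the high-set arrays for each of the 41 genes, from a limma fit that also holds the treatment, with bars for the standard error and purple points for an adjusted p under 0.05. Most genes lie right of 0, up to 1.72 for CTSL, while ATP6V0B and ATP6V0D1 lie left.

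Other genes of the pathway gave 0 past the test as well, of 95 measured, and 1, lower, at an unadjusted p under 0.05 (limma), where 1.42% of all genes were. With the set as a block 3 had an unadjusted p under 0.05, all lower, against 3.51% of all genes, and 0 passed. Groups did not overlap for 3 of the 95 higher, DPP7, ATP6V0E2 and LAMTOR4, and for 2 lower, ATP6V1E2 and LGALS8, against 1.95% and 3.37% of all genes. The mean was higher for 59 of the 95 and lower for 36, where 43.1% of all genes and 54.4% of those with a mean above background were higher. With the set as a block 47 were higher and 48 lower, where 53.2% and 63.9% were lower. Of 22 further hydrolases and cofactors 15 were higher in mean, with a median log2 change of 0.017, and 10 were higher with the set as a block. The protease LGMN read 9.78 ± 0.467 after PM2.5 and 9.48 ± 0.956 in controls (log2 change 0.30), and with the set as a block its change was -0.11. The lowest p of the list were those of GALC, PLBD2 and CTSF, of which PLBD2 lay above background, at 5.84 ± 0.173 after PM2.5 and 5.54 ± 0.459 in controls (log2 change 0.30). DPP7, a dipeptidyl peptidase, read 6.65 ± 0.0481 after PM2.5 and 6.57 ± 0.0199 in controls (log2 change 0.08). Of 15 other pump subunits and assembly factors 9 were higher in mean, with a median of 0.010, and 9 were higher with the set as a block. ATP6V1E2, a paralog of ATP6V1E1 known from testis, had an unadjusted p of 0.0378, at 4.004 ± 0.0823 after PM2.5 and 4.15 ± 0.0549 in controls (log2 change -0.15), within background. ATP6V0A1 read 7.52 ± 0.0497 after PM2.5 and 7.35 ± 0.239 in controls (log2 change 0.17), and ATP6V0E2 5.28 ± 0.046 after PM2.5 and 5.22 ± 0.0158 in controls (log2 change 0.057), within background.

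Lysosomal transporters, channels and membrane proteins were higher in mean for 12 of 18, with a median log2 change of 0.063. Over all genes 43.1% were higher in mean, and 54.4% of those with a mean above background. With the set as a block 10 of the 18 were higher and 8 lower. NPC1, which exports cholesterol, read 10.32 ± 0.674 after PM2.5 and 9.67 ± 1.22 in controls (log2 change 0.65) and was 1.60 higher in the low than in the high set, with a change of 0.11 with the set as a block. The genes of lowest p were MFSD8, within background, the chloride and proton exchanger CLCN7 at 6.76 ± 0.0814 after PM2.5 and 6.64 ± 0.116 in controls (log2 change 0.12) and the cystine exporter CTNS at 6.30 ± 0.0794 after PM2.5 and 6.18 ± 0.173 in controls (log2 change 0.12). Of 14 genes of mannose 6-phosphate tagging and sorting, which deliver hydrolases to lysosomes, 12 were higher in mean, with a median of 0.096. With the set as a block 10 of these were higher and 4 lower. In that fit 46.8% of all genes and 36.1% of those with a mean above background were higher. The receptor IGF2R read 7.32 ± 0.499 after PM2.5 and 6.79 ± 0.956 in controls (log2 change 0.53), and its sorting adaptor GGA2 6.35 ± 0.242 after PM2.5 and 6.15 ± 0.304 in controls (log2 change 0.20). Their changes were 0.12 and 0.044 with the set as a block. NAGPA, which uncovers the tag, had the lowest p of this list and lay within background.

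Of 17 genes of the TFEB family and lysosomal nutrient sensing 10 were higher in mean, with a median log2 change of 0.0038. Over all genes 43.1% were higher in mean, and 54.4% of those with a mean above background. With the set as a block 8 of the 17 were higher and 9 lower. TFE3 and MTOR lay above background. TFE3 read 8.39 ± 0.0676 after PM2.5 and 8.22 ± 0.315 in controls (log2 change 0.17). TFEB and MITF lay within background, at 4.21 ± 0.0279 after PM2.5 and 4.23 ± 0.064 in controls (log2 change -0.021) for the first and 4.91 ± 0.151 after PM2.5 and 5.002 ± 0.174 in controls (log2 change -0.094) for the second. The genes of lowest p, LAMTOR4, LAMTOR2 and ZKSCAN3, lay within background. Of 9 genes of lysosomal damage and repair 8 were lower in mean and 1 higher, with a median of -0.042. Over all genes 56.9% were lower in mean, and 45.6% of those with a mean above background. LGALS3, the galectin that gathers on ruptured lysosomes, was the 1 higher gene, at 6.29 ± 0.194 after PM2.5 and 6.20 ± 0.264 in controls (log2 change 0.088). It was at -0.043 with the set as a block. All 9 genes were lower in that fit, against 53.2% of all genes and 63.9% of those with a mean above background. The lowest p were those of LGALS8, UBE2QL1 and LGALS9, all within background. LGALS8 read 4.11 ± 0.0249 after PM2.5 and 4.17 ± 0.0465 in controls (log2 change -0.063).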

How the data were processed

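RNA of 6 samples of AC16 cells (3 PM2.5, 3 control, as titled) was measured on Affymetrix arrays. The deposited log2 values were made by the authors with RMA, per the submitters' processing notes; the software version and the genome build of the probes are not given in the sources used here. The table had 70523 rows with values from 2.73 to 19.93; 67528 were transcript clusters, 23781 with 1 symbol, 1543 with several and 42204 unnamed in the platform annotation. Clusters with 1 symbol were reduced to 22465 genes by the highest mean over all arrays. The number of arrays limits the precision.

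The test was a two-sided moderated linear model (limma 3.58.1, R 4.3.3, eBayes with an intensity trend) on all genes without filter or block, with Benjamini-Hochberg adjustment and a threshold of 0.05; the code was tested on simulated data. Errors are SD over replicates or the SE of the fit. The members, lists and tests were chosen with earlier results of these data known. The rule for named genes took, in each role, the member of lowest p, those above background without overlap and the one of highest mean, and up to 3 genes of lowest p of each further list; other members with single-array values, LGMN, DPP7, NPC1, TFE3, TFEB, MITF and LGALS3 were named after their values were seen. Alternatives changed the normalization, filter, cluster choice, variance prior, weights, block and arrays. Promoters and their coordinates are from RefSeq (GRCh38.p14).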

Additional observations from a re-analysis of the deposited data

How the results depend on the processing

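Of 655 values of single members under 16 alternatives 0 passed in limma (adjusted p between 0.108 and 1) and 72 turned sign, 16 of them with the spike-in set as a block. The count of members past the test was 0 under every alternative, as was that of the 95 other pathway genes. Between 0 and 17 members had an unadjusted p under 0.05, the most with array weights (29% of all genes), which leaned on control replicate 1 (weight 6.025) and little on control replicate 3 (0.2257). The members' median log2 change, 0.073 as first analysed, was 0.093 with centred arrays, 0.085 after a further quantile normalization, 0.046 among protein-coding genes, 0.074 without the dimmest 40% of genes (40 members) and 0.13 over the 30 members with a mean above background. It ran from -0.011 (without control replicate 2) to 0.22 (without control replicate 3, the only low-set control) when 1 array was left out. The count of members without overlap, 1 as first analysed, was 6 after quantile normalization, 4 among protein-coding genes and 1 to 19 with 1 array left out; the cause was not tested. With the replicate number as a block the median stayed at 0.073 and 0 members passed. Deviations of same-numbered arrays correlated at 0.78, -0.65 and 0.77, and PM2.5 replicates 1 and 2 correlated best with a control array of another number, so the numbers were not taken to pair the samples.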
